A study of Mus musculus with 12 samples.

Results

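The 10 genes described here encode amino acid transporters of the plasma membrane: Slc3a2, Slc7a5, Slc7a11, Slc7a1, Slc7a3, Slc1a4, Slc1a5, Slc38a2, Slc6a9 and Slc36a4. They were taken by symbol from a table of 34866 genes, and 1 identifier matched each symbol. The genes were chosen with earlier results of these data known. The table holds polyadenylated RNA of mouse embryonic fibroblasts (MEFs) in 12 libraries, 3 for each of 4 groups: the WT and KO genotypes in males and in females. WT means Sirt3+/+ cells of 129S1/SvImJ stock and KO means cells of a Sirt3-/- stock, whose strain is given by a stock number only. Sirt3 encodes a deacetylase of the mitochondria. The cells of all groups came from single embryos of 13 days, were immortalised with SV40 T antigen and carry it in every group, are labelled with no treatment, and were collected at passage 6, 48 h after seeding. The number of lines per group is not stated. If each group is 1 line, sex, genotype and line cannot be told apart, and the p-values below measure the spread between cultures only.

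Cells take up amino acids through carriers with overlapping substrates. Slc3a2 (the CD98 heavy chain) brings several light chains to the cell surface, among them Slc7a5, which exchanges large neutral amino acids such as leucine, and Slc7a11, which exports glutamate and imports cystine for glutathione synthesis. Slc7a1 and Slc7a3 carry the cationic amino acids arginine and lysine, Slc1a4 and Slc1a5 exchange small neutral amino acids such as serine, alanine and glutamine, Slc38a2 is a sodium-coupled carrier of small neutral amino acids, Slc6a9 takes up glycine, and Slc36a4 belongs to the proton-assisted carrier family. Several of these genes are known to be induced through Atf4, a transcription factor made in larger amounts when amino acids are short, which binds elements with the letters TGATGNAA.

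Values are in TPM, relative transcript levels that are scaled for transcript length and can be compared between genes. TPM keep no read totals, which leaves the depth of a library unknown and its counting error without an estimate. In bulk RNA, fewer cells that express a gene and less RNA of it per cell cannot be told apart. Each of the 12 libraries was nearest to a library of its own group, by the root mean square log2 difference over the genes tested. Sirt3 mRNA was not lower in the libraries labelled KO, with 6.59 to 9.07 TPM in male WT, 8.88 to 11 in male KO, 7.40 to 8.69 in female WT and 7.57 to 9.06 in female KO, so KO below means a library labelled KO. All 8 fibroblast markers examined were expressed, and their sum lay between 9080 and 10195 TPM in male WT, between 11416 and 12115 TPM in male KO, 7929 and 8115 in female WT, and 9694 and 10028 in female KO. Of the 8, 4 were called higher in male KO (10.7% of all genes tested) and 6 in female KO (5.63%). None was called lower in male KO (10.9%) or in female KO (5.84%). The 5 epithelial markers summed to between 76.0 and 77.8 TPM in male WT, 7.90 and 8.78 TPM in male KO, 19.7 and 22.7 in female WT, and 7.40 and 10.2 in female KO. Most of that sum was Krt19. Epcam, Krt18 and Krt19, the 3 that passed the filter described below, were called lower in male KO (10.9% of all genes tested) and in female KO (5.84%). Krt18 averaged 7.47 TPM in male WT, 0.363 in male KO, 4.18 in female WT and 0.950 in female KO. Cdh1 and Krt8 were low in all groups, with means of 0.287 TPM or less, and under 0.1 TPM in both KO groups. Des, a muscle gene, stood between 5.71 and 6.60 TPM in female WT and at 0.344 or less in the other groups, while the muscle regulators Myod1 and Myog were under 0.1 TPM in every group. Kdr, an endothelial receptor, stood between 4.28 and 5.08 TPM in female WT and at 1.83 or less elsewhere. The other endothelial markers were low, with female WT means of 0.314 TPM for Pecam1, 0.0618 for Cdh5 and 0.102 for Tek. Tek was higher in male WT, at 0.170 TPM. Des and Kdr were thus high in the group in which Slc7a1, Slc7a3 and Slc7a11 were highest. Of the blood markers, Csf1r averaged 1.41 TPM in male KO, where 7 of the 10 transporters were highest. Csf1r averaged 0.287 TPM or less elsewhere and did not pass the filter. Tubb3, a neuronal gene, averaged 10.2 TPM in male WT, 13.2 in male KO, 16.9 in female WT and 14.7 in female KO. Values of Cd68 (blood) and Gfap (glia) overlapped between neighbouring groups. Ptprc, Adgre1, Snap25 and Sox10 averaged under 0.1 TPM in every group. The part of other cell types in the transporter values was not tested.

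The stretch upstream of Slc7a11 is shown because it holds TGATGNAA at 2 places, whereas 3.97% of 32851 mouse promoter windows in the RefSeq table (GRCm38.p6, 250 bases before to 50 after a start site, both strands searched) hold the element at all. It lies at chr3:50443615-50443763 on the minus strand, from base -150 to -2 of the start site, with the elements in capitals at -66 to -59 and, in the opposite orientation, at -47 to -40. The Slc1a4 window, from -15 to 15 at chr11:20332699-20332728 on the minus strand, holds the element across the start site at -4 to 4.
Slc7a11: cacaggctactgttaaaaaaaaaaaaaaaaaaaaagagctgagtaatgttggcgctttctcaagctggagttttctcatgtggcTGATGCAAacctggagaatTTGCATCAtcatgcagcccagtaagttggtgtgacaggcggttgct
Slc1a4: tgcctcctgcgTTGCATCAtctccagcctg
Promoter windows were in the table for 7 of the 10 genes, and those of Slc3a2, Slc7a1, Slc38a2, Slc6a9 and Slc36a4 held no TGATGNAA. Slc7a3, Slc7a5 and Slc1a5 had no entry. TGACNNNGC, the antioxidant response element bound by Nfe2l2, was in the window of Slc38a2, 1 of the 2 windows of Slc7a1 and 2 of the 3 windows of Slc6a9, against 12.4% of all windows. ACGTG, the core bound by hypoxia-inducible factors, was in that of Slc3a2, against 19.6% of all windows. None of these letters overlapped, and a match is a description of the sequence only. Some windows lie within the annotated gene. In the Slc7a1 and Slc6a9 windows without TGACNNNGC, all 250 upstream bases were annotated exon of the gene. The same held for 169 of them in the Slc3a2 window, and for 157 and 28 in the other Slc6a9 windows.

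The 10 transporters differed widely in level. Slc3a2 was highest, with a mean of 301 TPM over the 12 libraries, followed by Slc7a5 with 236 TPM. Slc7a11 was lowest with 2.47 TPM, a 122-fold range. Their summed level was 736 ± 23.6 TPM in male WT, 933 ± 32.3 in male KO, 819 ± 7.74 in female WT and 769 ± 11.4 in female KO (SD, n = 3 each). The male KO libraries were highest, then female WT, while male WT and female KO overlapped narrowly. The group mean was highest in male KO for 7 of the 10 genes and in female WT for the other 3 (Slc7a1, Slc7a3 and Slc7a11). It was lowest in male WT for 6 of them.

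**Figure D1:**
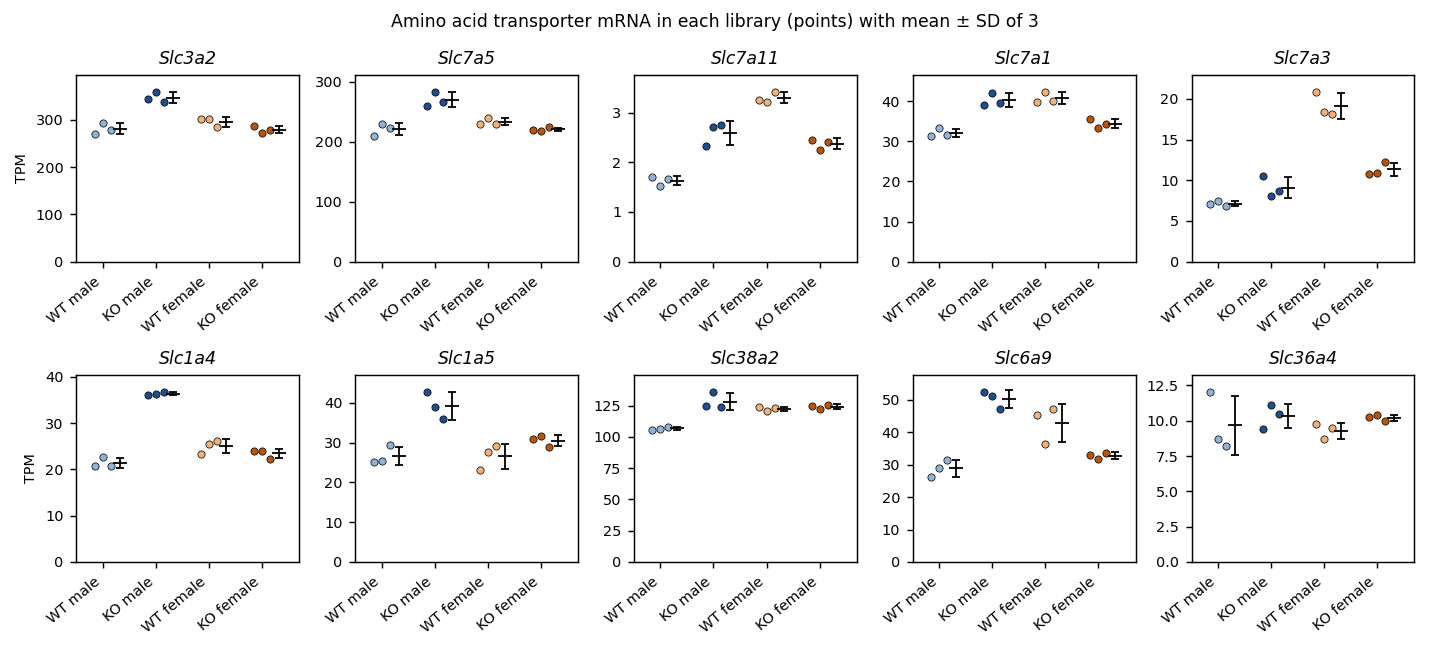
TPM of the 10 transporters in each library (points; 3 per group) with the group mean ± SD beside them, each panel on its own linear axis from 0. Male KO points lie above male WT points in 9 panels, and Slc36a4 is the exception.

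To ask how the transporters differ between KO and WT cells of each sex, log2(TPM+1) was compared with limma over the 12504 genes whose mean over the libraries reached 1 TPM. All 10 transporters were among these genes. A gene counted as called when its p, adjusted by Benjamini-Hochberg over all of these genes, was under 0.05. In males 7 of the 10 transporters rose in KO, against 10.7% of all genes tested, and none fell, against 10.9%. Slc6a9 and Slc1a4 rose most, and Slc7a11, Slc7a3 and Slc36a4 were not called. In females none rose, against 5.63% of all genes, and Slc7a1 and Slc7a3 fell, against 5.84%. The male KO effect was above the female one, by the sex by genotype interaction over all 12 libraries, for 8 of the 10, against 6.70% of all genes, and below it for none, against 6.33%. Slc1a5 and Slc36a4 were the exceptions. The median log2 fold change of the 10 was 0.31 in males, -0.087 in females and 0.47 in the interaction, beside -0.015, -0.023 and 0.0047 over all genes tested.

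The values of the 3 KO and the 3 WT libraries did not overlap, with KO higher, for 9 of the 10 transporters in males (18.8% of all genes). In females KO lay wholly below WT for 5 of them (18.7% of all genes), namely Slc7a1, Slc7a3, Slc7a5, Slc7a11 and Slc6a9. KO lay wholly above WT for Slc36a4 alone (14.9% of all genes).

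**Figure D2:**
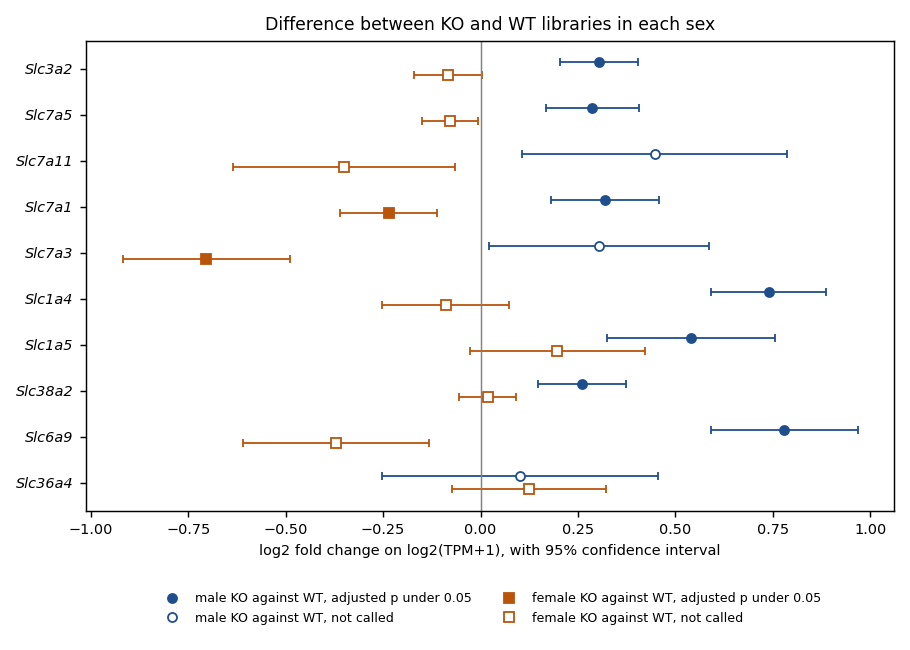
Log2 fold change of KO against WT on the log2(TPM+1) scale, with 95% confidence intervals, in males (circles) and females (squares) for each transporter; filled symbols have an adjusted p under 0.05. All 10 male estimates are above 0, and 7 of the 10 female estimates are below 0.

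Slc3a2 (ENSMUSG00000010095.13, chromosome 19 of GRCm38, 8706882 to 8723369, minus strand) had 271, 293 and 279 TPM in replicates 1 to 3 of male WT, 343, 359.7 and 338 TPM in male KO, 302, 302 and 284 in female WT, and 286, 271 and 279 in female KO. The male KO libraries stood above the other 9, whose groups overlapped. The heavy chain mRNA rose in male KO by 0.30 on the log2 scale (standard error 0.043, adjusted p = 0.00313 from limma), a ratio of mean TPM of 1.24. In females the difference was -0.084 (95% interval -0.17 to 0.0032, adjusted p = 0.198), and the interaction was 0.39 (adjusted p = 7.54e-04).

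Slc7a5 (ENSMUSG00000040010.10, chromosome 8, 121881150 to 121907694, minus strand), the main leucine-carrying light chain, had 209.8, 229 and 224 TPM in male WT, 260.0, 284 and 266 TPM in male KO, 230.4, 240.0 and 229 in female WT, and 220.0, 219 and 224 in female KO. As for Slc3a2, male KO stood alone at the top and female WT had the next mean. Male WT and female KO overlapped, with near-equal means of 220.99 and 220.971 TPM. It rose in male KO by 0.29 (standard error 0.050, adjusted p = 0.00773), and the interaction was 0.37 (adjusted p = 0.00156). In females the estimate was -0.078 (95% interval -0.15 to -0.0059, adjusted p = 0.155), and the 3 KO values lay below the 3 WT values by a small gap.

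Slc7a11 (ENSMUSG00000027737.10, chromosome 3, 49892526 to 50443614, minus strand), the cystine importer, was at a low level: 1.70, 1.52 and 1.67 TPM in male WT, 2.32, 2.70 and 2.76 TPM in male KO, 3.25, 3.22 and 3.42 in female WT, and 2.46, 2.25 and 2.41 in female KO. Male WT was lowest and female WT highest, and the KO groups lay between them and overlapped. The ratio of mean TPM was 1.59 for male KO against WT and 0.719 for female KO against WT. On the log2(TPM+1) scale, which understates changes of low genes, neither passed the threshold (0.45 in males, adjusted p = 0.0690, and -0.35 in females, adjusted p = 0.113). The male estimate did pass without the filter on low values (adjusted p = 0.0478), without the mean-variance trend (0.0101) and with all libraries in 1 fit (0.0155). The female estimate passed without the mean-variance trend (0.0148). None of the other alternatives, among them the smaller pseudocount of 0.1, gave a call in either sex. The difference between the sexes' KO effects was 0.80 (standard error 0.17, adjusted p = 0.00809).

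The other light chains that pair with Slc3a2 are Slc7a6, Slc7a7, Slc7a8 and Slc7a10. Slc7a5 made up from 76.4% to 79.6% of the summed TPM of the 6 light chains, as group means, and Slc7a6, which exchanges cationic for neutral amino acids, from 18.7% to 22.2%. Slc7a11 contributed 0.582% in male WT, 0.765% in male KO, 1.11% in female WT and 0.820% in female KO. Slc7a8 held at most 0.198%, and Slc7a10 was listed at 0 in every library. The light chains summed to 1.001 ± 0.0075 times the TPM of Slc3a2 in male WT, 0.977 ± 0.016 in male KO, 1.01 ± 0.029 in female WT and 1.04 ± 0.026 in female KO (SD, n = 3 each). Light and heavy chain mRNA thus stood at close to equal levels in all groups, and the range of the ratio in male KO (0.962 to 0.994) lay below that in female KO (1.01 to 1.06), with no test made. Of the 4 light chains that passed the filter, Slc7a5 and Slc7a7 rose in male KO (10.7% of all genes tested) and none fell (10.9%). In female KO none rose (5.63%) and none fell (5.84%). The interaction was called above 0 for Slc7a5, Slc7a7 and Slc7a11 (6.70%) and below 0 for none (6.33%). Slc7a6 gave 0.15 in males (95% interval -0.019 to 0.32, adjusted p = 0.186) and 0.12 in females (95% interval -0.032 to 0.28, adjusted p = 0.279).

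Likeness to Slc3a2 over the 4 groups was measured as the root mean square difference of the centred group means of log2(TPM+1), a description over 4 points with no test. The nearest of the other 12503 genes tested were Aplp2 (0.0023), Gm2a (0.0083), Rep15 (0.0098), Dusp19 (0.0101) and Slc7a5 (0.0101), where the median gene was at 0.18. The other transporters were farther: Slc7a1 was at 0.104, Slc38a2 at 0.105, Slc36a4 at 0.114, Slc1a5 at 0.133 and Slc1a4 at 0.159. Slc6a9 (0.202), Slc7a11 (0.239) and Slc7a3 (0.510) were farther than the median gene. The measure takes in the size of the differences as well as their shape. Slc36a4, called in no comparison, was thus nearer than Slc1a4, although male KO stood alone at the top for Slc1a4 as for Slc3a2.

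The cationic carriers Slc7a1 and Slc7a3 both fell in female KO. Slc7a1 (ENSMUSG00000041313.14, chromosome 5, 148327410 to 148399904, minus strand), the broadly expressed carrier of arginine and lysine, had 31.3, 33.2 and 31.6 TPM in male WT, 38.9, 42.1 and 39.6 TPM in male KO, 39.7, 42.4 and 40.005 in female WT, and 35.6, 33.3 and 34.3 in female KO. Male KO and female WT overlapped at the top and stood above female KO, which stood above male WT. It rose in male KO by 0.32 (standard error 0.058, adjusted p = 0.00936) and fell by 0.24 in female KO (standard error 0.052, adjusted p = 0.0331). The female call was lost when any 1 of the 6 libraries was left out (adjusted p from 0.0592 to 0.0966) and without the mean-variance trend (0.0506). The interaction was 0.56 (adjusted p = 3.61e-04).

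Slc7a3 (ENSMUSG00000031297.14, chromosome X, 101079210 to 101086020, minus strand), a cationic carrier best known from brain, had 7.03, 7.48 and 6.85 TPM in male WT, 10.5, 8.04 and 8.68 TPM in male KO, 20.9, 18.3 and 18.1 in female WT, and 10.8, 10.95 and 12.3 in female KO. No group overlapped another, with female WT far above the rest. It fell by 0.70 in female KO (standard error 0.090, adjusted p = 0.00497), to 0.593 of the mean TPM of female WT. In males it gave 0.31 (95% interval 0.023 to 0.59, adjusted p = 0.119), which passed only with all 12 libraries in 1 fit (adjusted p = 0.0477). The interaction was 1.01 (standard error 0.15, adjusted p = 6.75e-04). Slc7a3 made up 18.2 ± 0.32% of the TPM of both carriers in male WT, 18.4 ± 2.7% in male KO, 31.9 ± 2.3% in female WT and 24.8 ± 1.6% in female KO (SD, n = 3 each).

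The small neutral exchangers Slc1a4 and Slc1a5 both rose in male KO. Slc1a4 (ENSMUSG00000020142.12, chromosome 11, 20302180 to 20332713, minus strand), which carries serine, alanine and cysteine, had 20.7, 22.7 and 20.8 TPM in male WT, 36.0, 36.4 and 36.8 TPM in male KO, 23.3, 25.6 and 26.2 in female WT, and 23.9, 24.1 and 22.3 in female KO. The male KO libraries formed a tight set far above the other 9. It rose by 0.74 (standard error 0.062, adjusted p = 3.04e-04), a ratio of mean TPM of 1.70. In females the difference was -0.090 (95% interval -0.25 to 0.073, adjusted p = 0.449), and the interaction was 0.83 (adjusted p = 6.41e-05).

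Slc1a5 (ENSMUSG00000001918.17, chromosome 7, 16781340 to 16798274, plus strand), a main glutamine exchanger, had 25.2, 25.3 and 29.4 TPM in male WT, 42.8, 38.9 and 35.9 TPM in male KO, 23.0, 27.6 and 29.1 in female WT, and 31.0, 31.5 and 28.9 in female KO. Male KO stood above the other groups, which overlapped in order. It rose in male KO by 0.54 (standard error 0.091, adjusted p = 0.00672), a ratio of 1.47. The female estimate was also above 0, at 0.20 (95% interval -0.028 to 0.42, adjusted p = 0.237), and the male effect exceeded the female one by 0.34 (95% interval 0.044 to 0.64, adjusted p = 0.136). That difference passed without female WT replicate 1, its lowest library (0.44, adjusted p = 0.0426), and in none of the other alternatives run.

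Slc38a2 (ENSMUSG00000022462.7, chromosome 15, 96687392 to 96699730, minus strand), the carrier classically induced by amino acid shortage, had 106, 107 and 108 TPM in male WT, 125, 136 and 124 TPM in male KO, 124, 121 and 123 in female WT, and 125, 122 and 126 in female KO. Male WT stood below the other 3 groups, which overlapped in order. The rise in male KO was 0.26 (standard error 0.048, adjusted p = 0.00936). The female difference was 0.018 (95% interval -0.056 to 0.092, adjusted p = 0.761), and the interaction, 0.24 (adjusted p = 0.0127), was the smallest of the 8 called.

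Slc6a9 (ENSMUSG00000028542.17, chromosome 4, 117834506 to 117875198, plus strand), the glycine transporter, had 26.3, 29.0 and 31.3 TPM in male WT, 52.4, 51.1 and 47.1 TPM in male KO, 45.2, 36.2 and 47.2 in female WT, and 32.9, 31.7 and 33.6 in female KO. Male KO and female WT overlapped at the top, above female KO and then male WT. It had the largest male change of the 10, with a rise of 0.78 (standard error 0.080, adjusted p = 7.25e-04) and a ratio of 1.74. In females it gave -0.37 (95% interval -0.61 to -0.13, adjusted p = 0.0628), which passed without female WT replicate 2 (-0.49, adjusted p = 0.0106) and with all libraries in 1 fit (adjusted p = 0.0240). Its interaction, 1.15 (standard error 0.13, adjusted p = 1.48e-04), was the largest of the 10. Exons of Slc6a9 overlap those of the opposite-strand genes Ccdc24 (1258 bases, mean 2.31 TPM) and B4galt2 (46 bases, mean 58.6 TPM), and whether the counting used strand is not stated.

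Slc36a4 (ENSMUSG00000043885.14, chromosome 9, 15709738 to 15743361, plus strand) had 12.04, 8.71 and 8.24 TPM in male WT, 9.43, 11.1 and 10.4 TPM in male KO, 9.77, 8.68 and 9.46 in female WT, and 10.3, 10.4 and 9.999 in female KO. All neighbouring groups overlapped. It was called in no comparison, and the KO difference was 0.10 in males (95% interval -0.25 to 0.46, adjusted p = 0.679) and 0.12 in females (95% interval -0.074 to 0.32, adjusted p = 0.389). The male WT spread came largely from replicate 1.

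Cells of the sexes were then compared within each genotype. These comparisons reuse the libraries of the KO comparisons, so their values are given side by side and are not independent of them. In WT cells 5 of the 10 transporters were lower in males than in females (6.56% of all genes tested), and in 7 the 3 male values lay wholly below the 3 female values (18.5% of all genes). Slc7a3 differed most, by -1.31 (standard error 0.089, adjusted p = 2.02e-04), so that male WT held 0.373 of the female WT level. Slc7a11 gave -0.71 (adjusted p = 0.0140), Slc6a9 -0.55 (adjusted p = 0.0220), Slc7a1 -0.34 (adjusted p = 0.00817) and Slc38a2 -0.20 (adjusted p = 0.0101). Slc7a11 lost its call without female WT replicate 3 (adjusted p = 0.0531). Slc6a9 lost it without male WT replicate 1 (0.0723) or 2 (0.0625), without female WT replicate 1 (0.0794) or 3 (0.0752), and without the filter on low values (0.0897).

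In KO cells the estimate of male against female was above 0 for 9 of the 10 transporters, beside 2 in WT cells. Only Slc7a1 and Slc6a9 were called in both genotypes, with opposite signs. Slc3a2, Slc7a5, Slc1a4 and Slc1a5 were not called between WT sexes. Male KO exceeded female KO for 6 of the 10 (8.17% of all genes tested), by 0.61 for Slc1a4 (adjusted p = 5.49e-04), 0.60 for Slc6a9 (adjusted p = 7.35e-04), 0.35 for Slc1a5 (adjusted p = 0.0246), 0.31 for Slc3a2 (adjusted p = 0.00171), 0.29 for Slc7a5 (adjusted p = 0.00387) and 0.22 for Slc7a1 (adjusted p = 0.0446). The same 6 had male values wholly above the female values (16.7% of all genes), and Slc7a3 had them wholly below (18.7% of all genes), at -0.30 (adjusted p = 0.146). Slc7a11 differed by 0.090 (95% interval -0.23 to 0.41, adjusted p = 0.708) and Slc38a2 by 0.045 (95% interval -0.065 to 0.16, adjusted p = 0.568). The call of Slc7a1 was lost when any 1 library was left out (adjusted p from 0.0724 to 0.130). That of Slc1a5 was lost without male KO replicate 1 (0.0641) or 2 (0.0609) and without female KO replicate 1 (0.0658), 2 (0.0560) or 3 (0.0808), and both were lost without the filter on low values (0.0523 and 0.0697). Slc7a1 was also lost without the mean-variance trend (0.0615).

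**Figure D3:**
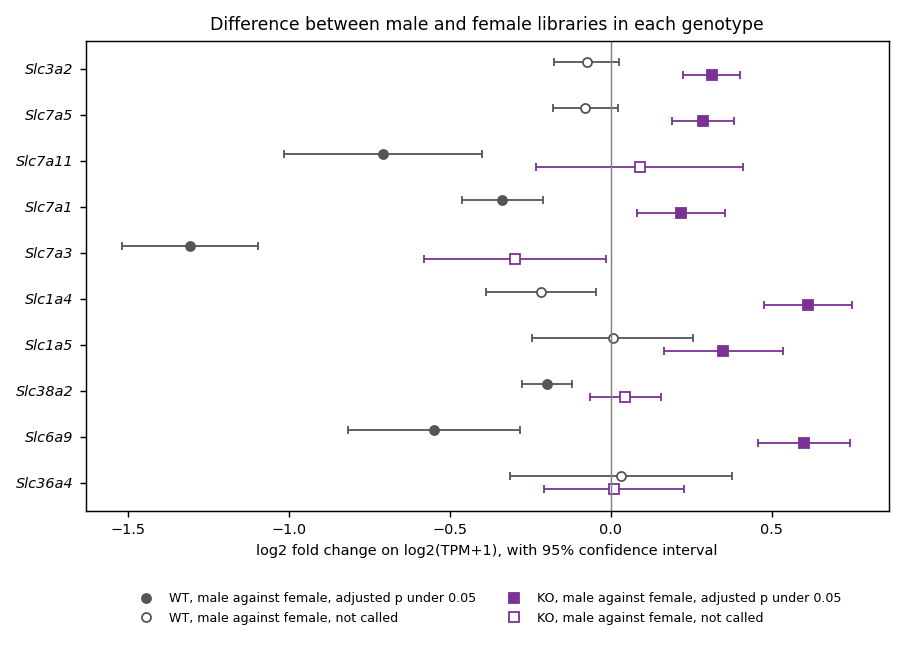
Log2 fold change of male against female libraries on the log2(TPM+1) scale, with 95% confidence intervals, in WT (circles) and KO (squares); filled symbols have an adjusted p under 0.05. In WT the 5 called genes lie below 0 and in KO the 6 called genes lie above 0; Slc7a1 and Slc6a9 are called in both.

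Other plasma membrane amino acid transporters were read from a list of 32 genes, of which 12 passed the filter on low values. In male KO 3 of the 12 rose and 1 fell, beside 10.7% and 10.9% of all genes tested. In female KO 1 rose and 1 fell, beside 5.63% and 5.84%. The interaction was called above 0 for 3 and below 0 for 2, beside 6.70% and 6.33%. Their median log2 fold change was 0.093 in males and -0.24 in females. Slc6a15, a carrier of branched-chain amino acids and proline, had 6.65, 5.88 and 5.64 TPM in the WT males and 1.28, 0.944 and 1.02 in the KO males, where it fell by 1.76 (adjusted p = 2.43e-04). Slc7a7, a light chain of Slc3a2 that exports cationic amino acids, had 1.35, 0.760 and 0.867 TPM in the WT males and 3.19, 2.76 and 2.91 in the KO males, where it rose by 0.997 (adjusted p = 0.00777). Slc43a2, a carrier of large neutral amino acids, rose by 1.12 in male KO (adjusted p = 0.00761). Slc7a2, a cationic carrier like Slc7a1 and Slc7a3, gave 0.50 in males (adjusted p = 0.128) and -0.65 in females (adjusted p = 0.0509), and its interaction of 1.15 was called (adjusted p = 0.0145).

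The calls that remain in this list were named after their values were seen. Slc43a1, a relative of Slc43a2, rose by 0.81 in male KO (adjusted p = 0.0229), a call lost without male WT replicate 2 or any 1 male KO library (adjusted p up to 0.0762) and without the filter on low values (0.0803). Slc38a1, a sodium-coupled carrier of the same family as Slc38a2, fell by 0.44 in female KO (adjusted p = 0.00348), with 66.6, 69.0 and 65.5 TPM in female WT and 50.9, 46.3 and 50.4 in female KO. Slc6a6, which carries taurine, rose by 0.41 in female KO (adjusted p = 0.00184). None of the 5 lysosomal amino acid transporters that passed the filter was called by limma in any of the 5 comparisons, and the number with an unadjusted p under 0.05 was 1 in male KO, 0 in female KO, 0 in the interaction and 1 in each comparison of the sexes.

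**Figure D4:**
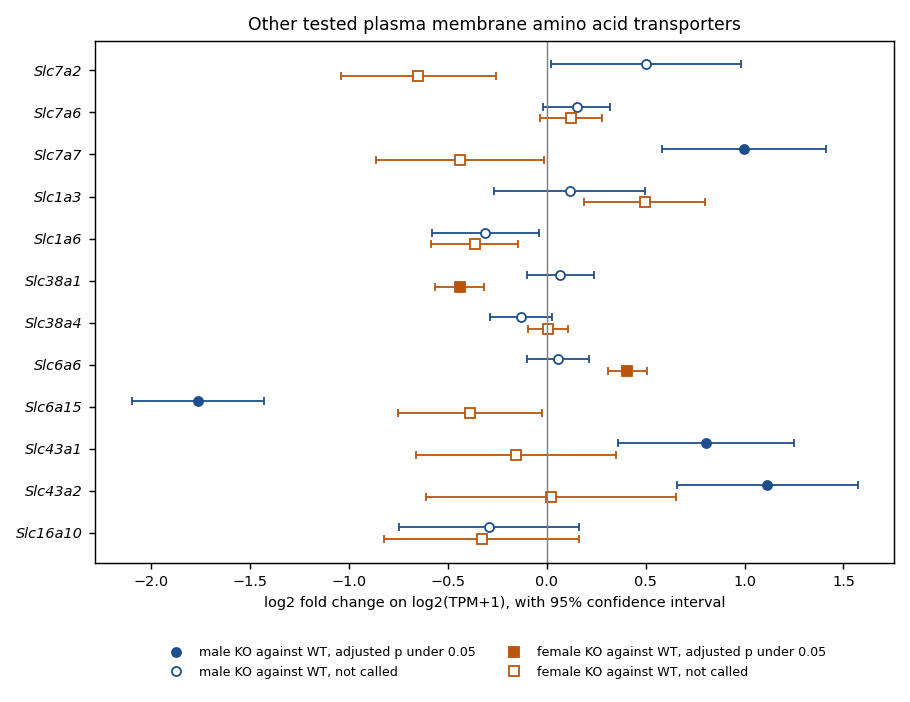
Log2 fold change of KO against WT on the log2(TPM+1) scale, with 95% confidence intervals, for the 12 other plasma membrane amino acid transporters that passed the filter, in males (circles) and females (squares); filled symbols have an adjusted p under 0.05. Slc6a15 lies at -1.76 in males, opposite to Slc7a7, Slc43a1 and Slc43a2.

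Atf4 and 19 genes known to be induced through it were read beside the transporters, and all 20 passed the filter. The 20 rose in male KO, beside 10.7% of all genes tested, with a median of 0.73. The interaction was called above 0 for all 20, beside 6.70% of all genes tested, with a median of 0.83. The male call of Shmt2, a serine and glycine enzyme of the mitochondria, held in 7 of 14 alternatives and was lost without any 1 library but male WT replicate 2 (adjusted p up to 0.0751) and without the mean-variance trend (0.118). The interaction of Sesn2, a stress-induced leucine sensor, was lost when any 1 of 9 of the 12 libraries was left out, the exceptions being male WT replicate 2, male KO replicate 1 and female WT replicate 3 (adjusted p up to 0.0832). In female KO the median of the 20 was -0.073. There 1 rose (Nupr1), beside 5.63% of all genes tested, and 4 fell (Atf4, Psph, Shmt2 and Cth), beside 5.84%. Of these, the call of Cth held in all 14 alternatives and that of Shmt2 in 13. The female call of Atf4 was lost without any 1 of the 6 libraries (adjusted p from 0.0587 to 0.0827), and that of Psph, a serine synthesis enzyme, without any 1 but female WT replicate 3 (adjusted p up to 0.124). Atf4 itself had 204, 218 and 209 TPM in male WT, 365, 368 and 386 TPM in male KO, 283, 289.9 and 278 in female WT, and 260.3, 259.6 and 259 in female KO. Its group order, from male KO through female WT and female KO down to male WT, was also that of Slc1a4 and Slc6a9. Neighbouring groups lay apart for Atf4. For Slc1a4 the groups below male KO overlapped in order, and for Slc6a9 male KO and female WT overlapped. The other transporters had other orders. The largest changes in the list were the interaction of Cth, which makes cysteine, at 1.69 (adjusted p = 1.53e-05), that of Trib3, an Atf4-induced pseudokinase, at 1.51 (adjusted p = 1.37e-06), and the male rises of Vldlr, a lipoprotein receptor, at 1.46 (adjusted p = 2.74e-04) and of Pycr1, a proline synthesis enzyme, at 1.26 (adjusted p = 1.54e-04). Nupr1, a stress-induced cofactor, rose by 1.26 in males (adjusted p = 2.93e-05) and by 0.30 in females (adjusted p = 0.0224), the latter lost without female WT replicate 1 or 3 or female KO replicate 1 or 2 (adjusted p up to 0.0719). Nupr1, Psph, Shmt2 and Sesn2 were named after their values were seen.

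**Figure D5:**
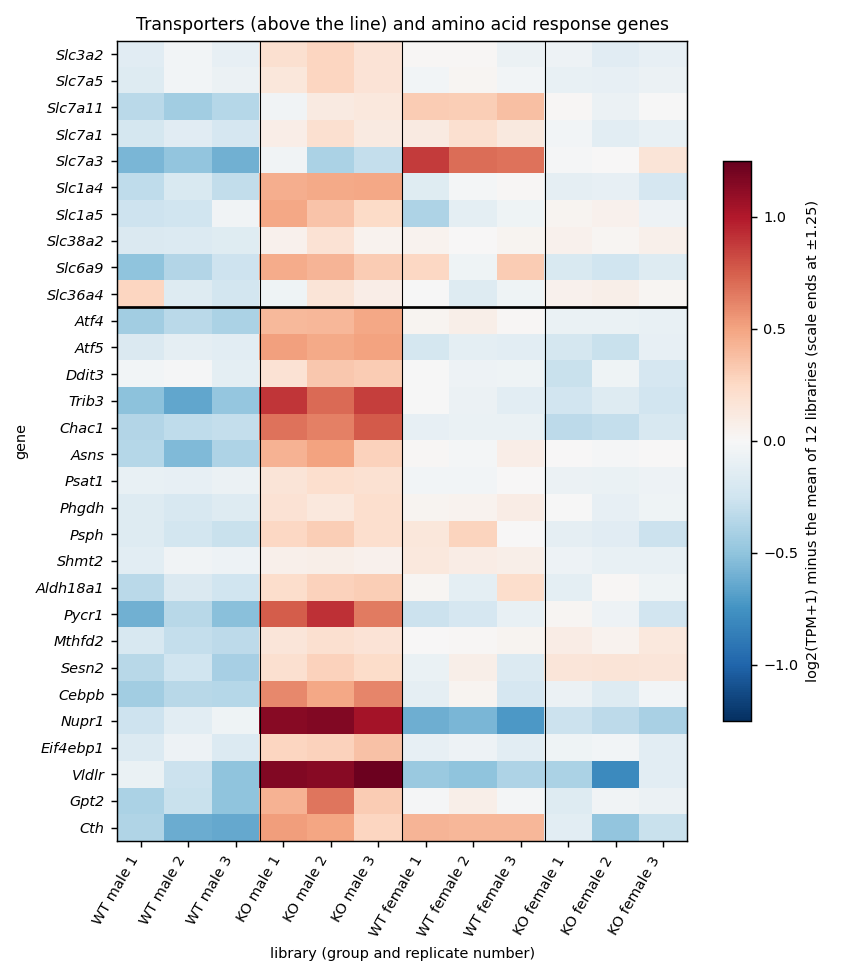
log2(TPM+1) of the 10 transporters (above the line) and 20 amino acid response genes in each of the 12 libraries, centred on the gene's mean over the libraries; red is higher and blue lower. The 3 male KO columns are red or pale red for the response genes and for Slc1a4 and Slc6a9, whereas Slc7a3 is red in the female WT columns.

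Slc7a11 was also read with the genes of glutathione synthesis, of which 6 of 7 passed the filter. In male KO Cth rose by 0.97 (adjusted p = 9.22e-04) and Gss, glutathione synthetase, fell by 0.28 (adjusted p = 0.0350), the latter lost without male WT replicate 1 or 2 or male KO replicate 1 or 3 (adjusted p up to 0.11). In female KO Cth fell by 0.72 (adjusted p = 0.00541). The interaction was called above 0 for Slc7a11, Cth and Gclc, the catalytic subunit of glutamate-cysteine ligase, at 0.31 (adjusted p = 0.0125). Of all genes tested, 6.70% were called above 0 in the interaction. Among them 10.7% rose and 10.9% fell in male KO, and 5.84% fell in female KO. Cth is also 1 of the amino acid response genes above.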

How the data were processed

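The authors sequenced polyadenylated RNA of 12 cultures and deposited TPM per gene for 34866 versioned Ensembl identifiers, made with Salmon (1.10.1 in the submitters' processing notes; the study's methods name a later release) against GRCm38. The study's own differential tests started from the same matrix. TPM are not counts and keep no depth, so here limma 3.58.1 in R 4.3.3 was fitted to log2(TPM+1), with the variance prior following the mean, over the 12504 genes whose mean reached 1 TPM, with Benjamini-Hochberg adjustment over all of them. Comparisons of a pair of groups used 6 libraries and the interaction all 12. Symbols and positions came from GENCODE M21 (99.4% of identifiers matched). The fit was tested on simulated data. Alternatives were each library left out in turn, the replicate number as a block, 1 fit of all libraries, a constant variance prior, quantile normalization, scaling by median-of-ratios factors, a minimum mean of 5 TPM, no filter, and a pseudocount of 0.1.

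The transporters, lists and tests were chosen with earlier results of these data known. Named are the 10 transporters, Sirt3, Atf4, the 5 genes nearest to Slc3a2 and, per list, up to 4 genes with the largest change among those called in the male, female or interaction test.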

Additional observations from a re-analysis of the deposited data

Results flagged for a closer look

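The effect of KO differed between males and females, by the limma interaction test over all 12 libraries, for 8 of the 10 transporters and for Atf4. The difference, male minus female log2 fold change, was 1.15 for Slc6a9, 1.01 for Slc7a3, 0.83 for Slc1a4, 0.80 for Slc7a11, 0.56 for Slc7a1, 0.39 for Slc3a2, 0.37 for Slc7a5 and 0.24 for Slc38a2. It was 0.95 for Atf4.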

How the results depend on the processing

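Of 745 values of the 10 transporters under the alternatives, 696 kept their direction and side of the threshold, 30 lost and 9 gained a call, and 10 uncalled values changed sign without being called (Slc36a4 in the interaction and between the sexes of each genotype, and Slc1a5 between WT sexes). No called value reversed. The 7 male calls held in all 14 alternatives. The 8 interaction calls held wherever the gene was tested, and Slc7a11 was not tested at a mean of at least 5 TPM. Leaving out 1 library gave from 774 to 835 genes called in females (1434 with all libraries), from 1037 to 1243 between WT sexes (1603) and from 1328 to 1824 between KO sexes (2070, lowest without male KO replicate 3), and from 1 to 2 transporters called in females and from 3 to 5 between WT sexes (lowest without female WT replicate 3). Scaling moved the median of all genes by less than 0.1 on the log2 scale. The depth of the libraries is unknown, so counting error could not be separated from the spread between cultures.

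No source says that replicate numbers pair the libraries, and the deviations of same-numbered libraries correlated with a mean r between -0.0091 and 0.017. With the replicate number as a block, the genes called in females fell to 670 and those between KO sexes were 1397, 1 transporter was called in females, and Slc7a1 gave an adjusted p of 0.10 there and 0.123 between KO sexes, and Slc7a11 0.0578 between WT sexes. Beside the transporters, the calls lost with the block included those of Atf4 in females (0.0822) and Slc43a1 in males (0.0512). Among the comparisons of the sexes they included Slc7a7 (0.0812 in WT, 0.0849 in KO) and Shmt2 (0.065 in WT, 0.0599 in KO). In each comparison between 0 and 2 of 6 libraries correlated best with their own number.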
